A study of Homo sapiens with 12 samples.

Results

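The axon guidance ligands and receptors were taken as the genes whose symbol belongs to the semaphorin, plexin, neuropilin, ephrin, Eph receptor, SLIT, ROBO, netrin or netrin receptor families. By this rule 58 of the 13951 genes analysed were members, 31 ligands and 27 receptors. They comprised 17 semaphorins, 8 plexins, NRP1, 8 ephrins, 12 Eph receptors, 4 netrins, the netrin receptors NEO1, UNC5A, UNC5B and UNC5C, 2 SLIT ligands and 2 ROBO receptors. Their mRNA was measured by RNA-seq in 12 libraries of CWR22Rv1, an established androgen-responsive prostate cancer line derived from a relapsed xenograft. All lines were kept in medium with serum and puromycin and harvested 48 h after plating. Control cells carried Cas9 with no guide RNA. LV-MEIS1 cells carried lentiviral MEIS1, and their labels do not mention Cas9. HOXB13ko cells carried Cas9 from a transposon under the EF1a promoter and were targeted at HOXB13 by CRISPR, after which several knockout clones were combined into a single pool. HOXB13ko-LV-MEIS1 cells were that pool with lentiviral MEIS1. Each group held 3 libraries of 1 line, and nothing in the labels ties them to separately derived lines, so p-values measure the spread between these libraries, which may be technical. The design asked what MEIS1, a TALE homeodomain factor, does to expression with and without its partner HOXB13.

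Guidance cues were named for steering growing axons, and the same proteins regulate adhesion, migration and vessel growth in many epithelia and tumours. Semaphorins signal through plexins, and most of the secreted class 3 semaphorins also need a neuropilin. Ephrins are membrane-bound and signal on contact to Eph receptor tyrosine kinases, with ephrin-A ligands held by a lipid anchor and ephrin-B ligands spanning the membrane. Netrins act through DCC, neogenin (NEO1) and the UNC5 receptors, which mediate repulsion and carry a death domain. SLIT proteins are secreted ligands of ROBO receptors.

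Library depth, estimated from the steps between low CPM values (estimated counts scaled to library size), lay between 17200000 and 28700000 reads. MEIS1 itself averaged 4.25 ± 0.202 CPM in Control, 47.4 ± 1.96 in LV-MEIS1, 3.56 ± 0.118 in HOXB13ko and 29.7 ± 0.365 in HOXB13ko-LV-MEIS1 (SD, n = 3), so the MEIS1 lines differed in how much MEIS1 mRNA they held. HOXB13 mRNA averaged 196 ± 17.1 CPM in Control and 151 ± 0.770 in LV-MEIS1, whereas libraries with the label HOXB13ko averaged 327 ± 20.1 and those with the label HOXB13ko-LV-MEIS1 354 ± 25.1, both above Control. A gene-level value also counts transcripts of an edited gene, so it does not check the edit, and groups are named by their labels throughout. All 8 markers of prostate luminal epithelium were listed. Their summed level was 2407 to 2442 CPM in LV-MEIS1 and 3249 to 3487 CPM in the other libraries. Of the markers of other cell types, none of the 3 basal, 4 endothelial or 4 leukocyte markers was listed. The 2 of 6 neuroendocrine markers listed (SYP, ENO2, without CHGA) summed to 199 to 212 CPM in Control and 162 to 182 CPM elsewhere. Most of that sum was ENO2, which averaged 187 CPM in Control and 163 in LV-MEIS1. SYP alone gave 14.4 to 17.0 CPM in Control and 1.24 to 2.14 in LV-MEIS1. It gave 3.68 to 4.25 CPM in HOXB13ko and 3.51 to 4.35 in HOXB13ko-LV-MEIS1. The 3 of 6 fibroblast and smooth muscle markers listed (COL1A1, PDGFRB, ACTA2) summed to 23.4 to 27.0 CPM in Control. They summed to 34.9 to 41.0 CPM in LV-MEIS1 and 28.6 to 34.9 in the HOXB13ko lines. Of these COL1A1 alone was higher in LV-MEIS1 than in Control, at 32.8 against 14.5 CPM, while PDGFRB stood at 0.266 against 1.41 and ACTA2 at 5.62 against 8.88 CPM. The part these levels play in the results below was not tested. In bulk RNA, fewer cells with a transcript and less of it per cell cannot be told apart.

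Most guidance families were represented by 1 or a few abundant members and a tail of low ones. Levels were compared between genes as CPM per kb of the longest annotated transcript. EPHA3, an ephrin-A receptor, was the most abundant member, at 123 ± 14.3 CPM per kb in Control. It was followed by the transmembrane semaphorin SEMA6A at 57.9 ± 1.8, the plexin PLXNB2 at 48.4 ± 2.88 and the ephrin EFNA1 at 34.6 ± 3.42 CPM per kb. EPHB4 stood at 24.7 ± 1.92, ROBO1 at 17.1 ± 1.14, NEO1 at 6.04 ± 0.273 and NRP1 at 4.84 ± 0.462 CPM per kb. SLIT1 led its family at 1.66 ± 0.0702 CPM per kb, and NTN3 led the netrins at only 0.648 ± 0.0904. The lowest member, the netrin-G protein NTNG1, stood at 0.156 ± 0.0253 CPM per kb, 787 times below EPHA3. Of the 49 pairs of neighbours in the family orders in Control, 13 had overlapping ranges, such as EPHB3 and EPHA2, EPHA4 and EPHA1, SEMA4B and SEMA4D, and NTN3 and NTNG2. Averaged over the 12 libraries, 14 of the 58 members lay under 5 CPM and 6 at 100 CPM or more.

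**Figure D1:**
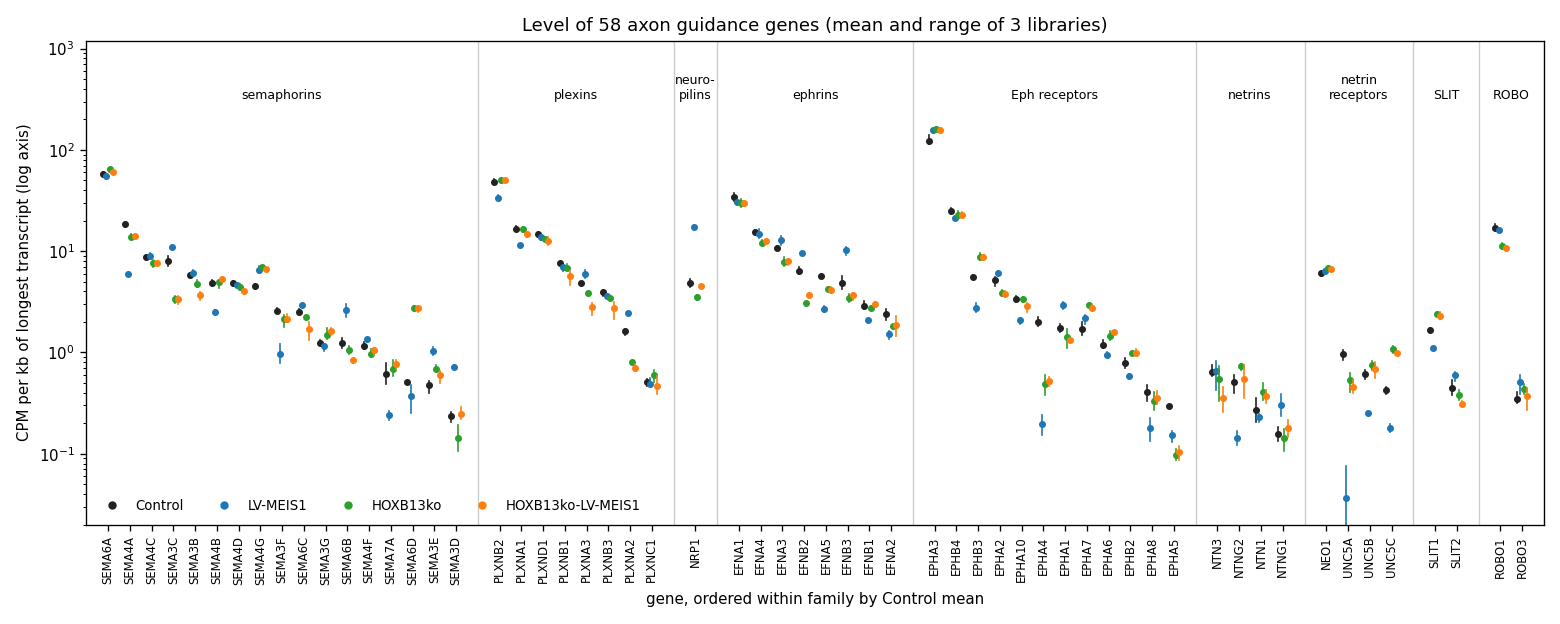
Mean level of each of the 58 genes in each group, in CPM per kb of the longest transcript on a log axis, with the range of the 3 libraries as a line, grouped by family. EPHA3 lies highest at 123 CPM per kb in Control and NTNG1 lowest at 0.156; the line for UNC5A in LV-MEIS1 runs off the axis because 1 library lists it at 0.

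Summed over a family, guidance receptor and ligand mRNA differed by family and line. The Eph receptors summed to 954 ± 86.7 CPM in Control and to between 1103 and 1173 CPM on average in the other groups, mostly through EPHA3. EPHA3 gave 796, 651 and 657 CPM in Control, 893, 918 and 875 in LV-MEIS1, 883, 913 and 958 in HOXB13ko and 922, 889 and 902 in HOXB13ko-LV-MEIS1. Control stood below the other groups with no overlap, and neither change of EPHA3 against Control passed 1.5-fold. Without EPHA3 the Eph receptors summed to 252 ± 14.2 CPM in Control and 208 ± 6.98 in LV-MEIS1. The ephrins summed to 186 ± 7.36 CPM in Control, 196 ± 4.63 in LV-MEIS1, 139 ± 5.44 in HOXB13ko and 143 ± 4.03 in HOXB13ko-LV-MEIS1. The ROBO receptors, nearly all ROBO1, summed to 130 ± 8.45 and 124 ± 2.73 CPM in Control and LV-MEIS1 and to 86.3 ± 5.09 and 82.9 ± 1.51 CPM in the HOXB13ko lines. Plexins summed to 725 ± 34 CPM in Control and 589 ± 22.7 in LV-MEIS1. The 3 UNC5 receptors summed to 12.1 ± 0.492 CPM in Control, 3.59 ± 0.353 in LV-MEIS1, 17.7 ± 1.23 in HOXB13ko and 16 ± 0.841 in HOXB13ko-LV-MEIS1. Semaphorins as a family ran from 632 ± 24.3 CPM in LV-MEIS1 to 686 ± 7.92 in HOXB13ko, with SEMA6A alone at 395 ± 12.3 CPM in Control. These sums were not tested.

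**Figure D2:**
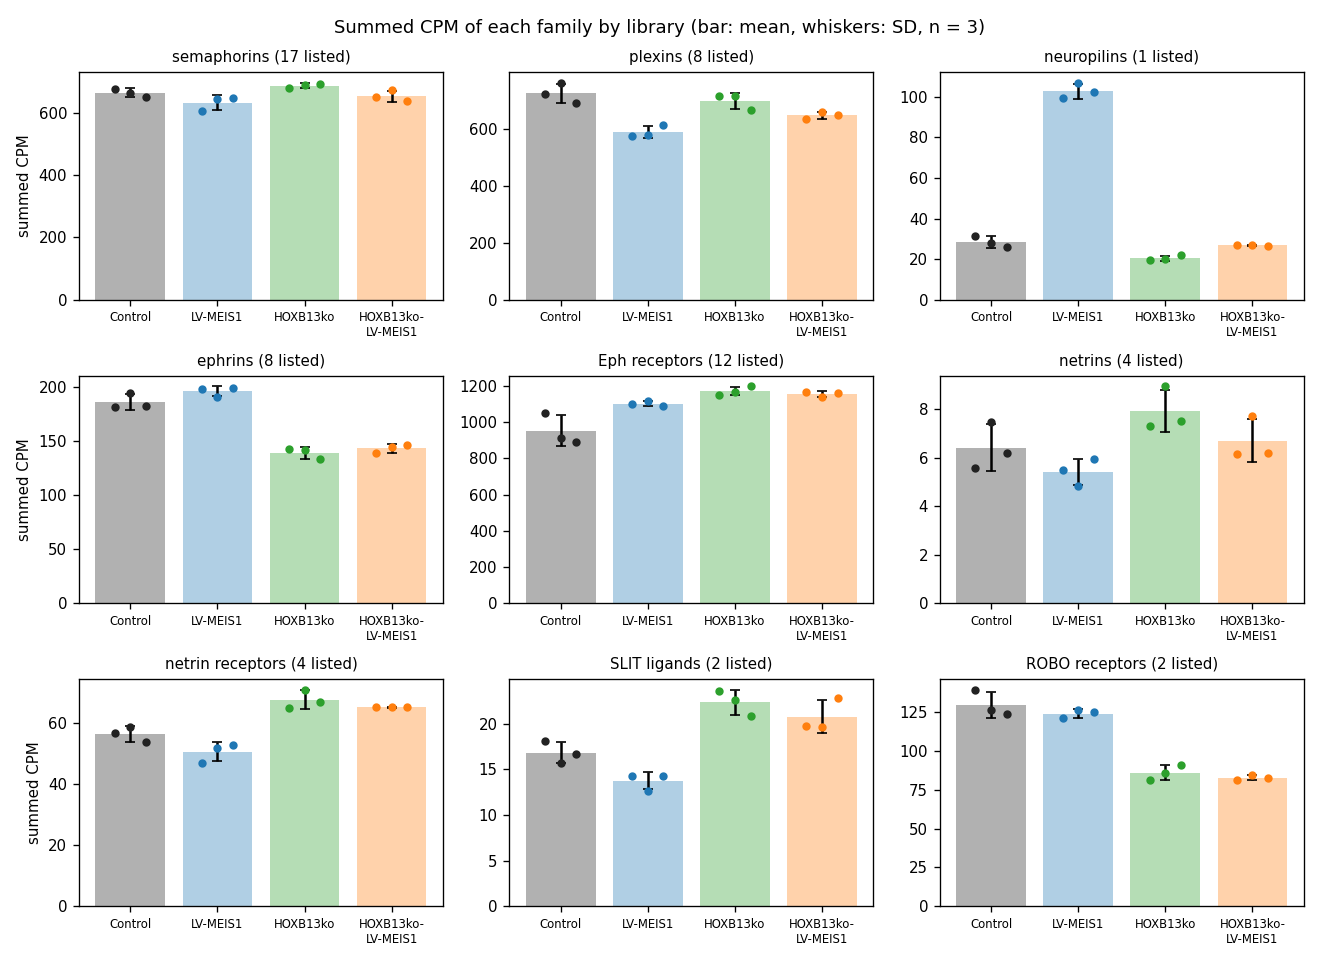
Summed CPM of each guidance family in each library (points), with the group mean (bar, from 0) and SD (whiskers, n = 3). NRP1, the single neuropilin, averaged 103 CPM in LV-MEIS1 and reached at most 31.4 CPM in the libraries of the other groups, and ephrins and ROBO receptors are lower in both HOXB13ko lines, at 139 and 143 CPM and at 86.3 and 82.9 CPM.

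Cells with lentiviral MEIS1 were compared with Control. The UNC5 netrin receptors UNC5A, UNC5B and UNC5C, the Eph receptors EPHA4 and EPHB3, the semaphorins SEMA4A, SEMA3F and SEMA4B, the ephrin EFNA5 and the netrin-G protein NTNG2 fell. The neuropilin NRP1, the semaphorin SEMA3D and the ephrin EFNB3 rose. A gene was called where limma's treat test, which asks whether a change exceeds 1.5-fold, gave a Benjamini-Hochberg adjusted p under 0.05 over all genes. That made 13 of the 58 members, against 3.99% of all genes. Of these, 3 rose, against 1.75% of all genes, and 10 fell, against 2.24%. By limma's eBayes test against no change at all, 40 of the 58 passed, against 44.5% of all genes. The median log2 fold change of the members was -0.09, that of all genes 0.01, and the median size of the change was 0.46 for members and 0.20 for all genes. By family, 3 of 4 netrin receptors, 2 of 12 Eph receptors, 3 of 17 semaphorins, 1 of 8 ephrins and 1 of 4 netrins fell, and no plexin, SLIT or ROBO gene was called.

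Cells labelled HOXB13ko were compared with Control. The semaphorin SEMA6D and the netrin receptor UNC5C rose, and the Eph receptor EPHA4, the semaphorin SEMA3C, the ephrin EFNB2 and the plexin PLXNA2 fell. This was 6 of the 58 members, against 1.41% of all genes. The 2 that rose compare with 0.652% of all genes and the 4 that fell with 0.76%. Against no change, 30 of the 58 passed eBayes, against 32.9% of all genes. The median log2 fold change was -0.17 over members and -0.00166 over all genes, with median sizes of 0.29 and 0.17. All 8 ephrins had a fitted change below 0, of which EFNB2 alone was called and 5 passed eBayes. Of the 58 members 37 were below 0, and the share of all genes below 0 was not computed.

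Adding MEIS1 to the HOXB13ko line gave no called member, against 0.00717% of all genes, which was 1 gene. None of the 58 members passed eBayes either, against 0.0502% of all genes, although 12 members had an unadjusted eBayes p under 0.05 and none an unadjusted treat p under 0.05. The fitted changes ran from -0.45 for PLXNA3 to 0.58 for SEMA3D on the log2 scale, and 49 of the 58 had a 95% interval wholly within 1.5-fold. NRP1 had a log2 difference of 0.38 ± 0.07 (SE; eBayes adjusted p = 0.0817) and SEMA3D one of 0.58 ± 0.16 (adjusted p = 0.157). All 8 plexins had a fitted value below 0, with a median of -0.24, and none passed the test. The libraries of both groups did not overlap for 14 of the 58 members, against 21.1% of all genes.

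Of the 4 pairwise comparisons, that between the MEIS1 lines with and without HOXB13 targeting had the most called members. MEIS1 mRNA also differed in this pair, at 47.4 CPM in LV-MEIS1 and 29.7 in HOXB13ko-LV-MEIS1. The HOXB13ko pool was combined from clones and carried Cas9, which the LV-MEIS1 labels do not mention. These differences cannot be told apart from HOXB13 targeting. Against LV-MEIS1, HOXB13ko-LV-MEIS1 had 21 of the 58 members called, against 6.71% of all genes, and 47 past eBayes, against 50.1%. The 12 higher members, against 3.29% of all genes, were SEMA6D, UNC5C, UNC5A, EPHB3, NTNG2, SEMA4A, SEMA7A, UNC5B, EPHA4, SEMA3F, SEMA4B and SLIT1. The 9 lower members, against 3.42%, were NRP1, PLXNA2, SEMA3C, SEMA6B, EFNB3, EFNB2, SEMA3D, PLXNA3 and EPHA1. Median log2 fold changes were -0.01 for members and -0.02 for all genes, with median sizes of 0.66 and 0.23. All 6 members called between HOXB13ko and Control, which shares no library with this comparison, were among the 21. The same overlap over all genes was not computed. Both HOXB13ko lines came from the same pool of clones, so the comparisons are not independent. The comparison of LV-MEIS1 with Control does share libraries with that between the MEIS1 lines, and 12 of its 13 called members were among the 21. A further 5 of the 21 were called in neither line against Control. The shares of all genes matching these counts were not computed.

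**Figure D3:**
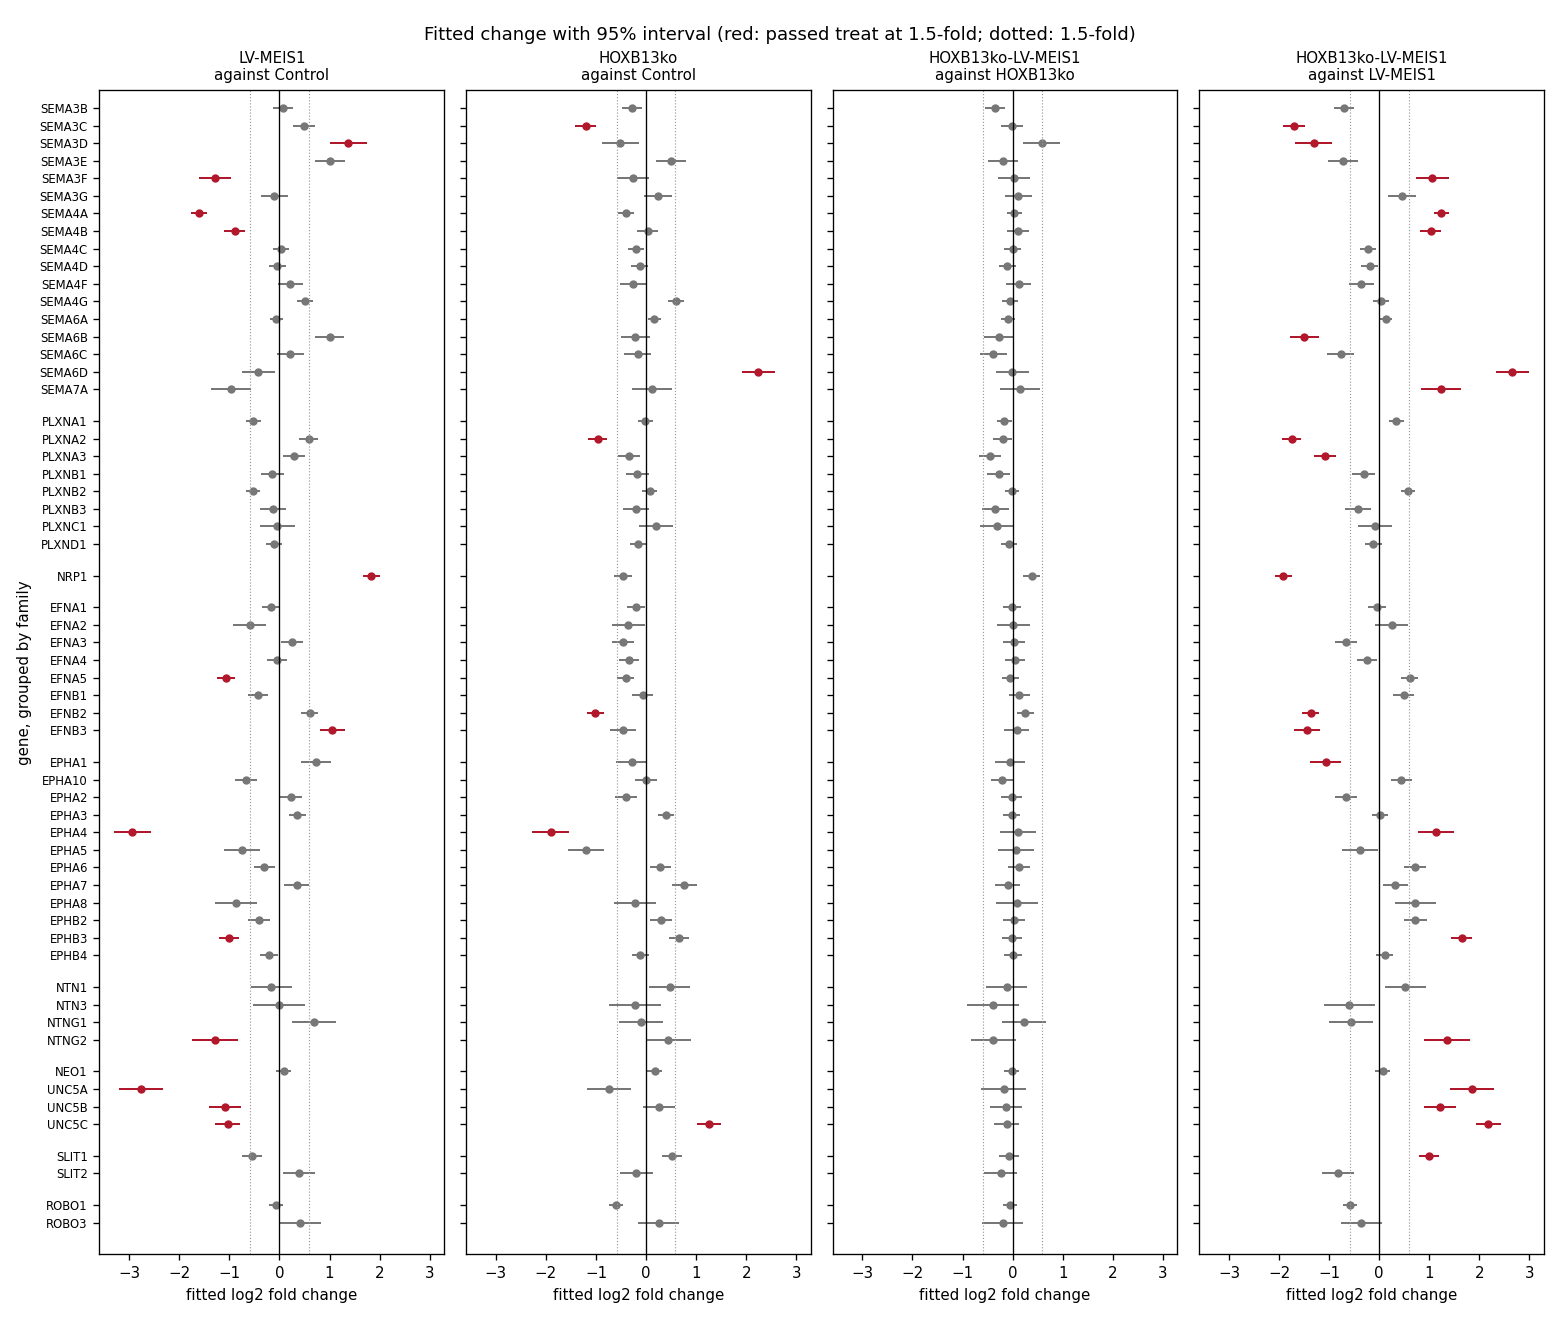
Fitted log2 fold change of each of the 58 genes with its 95% interval in 4 comparisons, red where the gene passed treat at 1.5-fold (dotted lines mark 1.5-fold). There are 13, 6, 0 and 21 red genes from left to right, and all fitted values in the panel of MEIS1 added to HOXB13ko lie between the dotted lines.

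The difference between the MEIS1 effect in Control cells and that in HOXB13ko cells was tested as an interaction. It was called for 7 of the 58 members, against 2.93% of all genes. The 2 members with a more positive effect in Control cells, against 1.31% of all genes, were NRP1 and SEMA6B. The 5 with a more negative one, against 1.62%, were EPHA4, UNC5A, SEMA4A, SEMA3F and EFNA5. Against no difference, 37 of the 58 passed eBayes, against 34.2% of all genes. The lines with MEIS1 also differed in MEIS1 mRNA, at 47.4 and 29.7 CPM, and that difference cannot be told apart from the HOXB13 background. Control cells carried Cas9 and the LV-MEIS1 labels do not mention it. In that pair, Cas9 and other differences between the lines cannot be told apart from MEIS1.

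**Figure D4:**
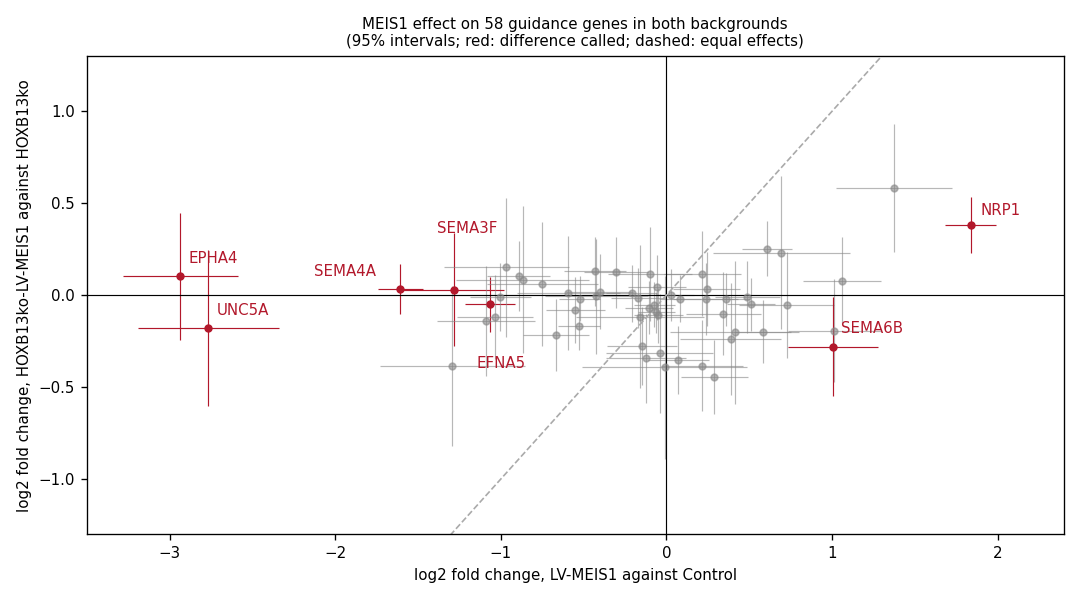
The log2 fold change of the 58 genes with MEIS1 in Control cells (horizontal axis) against that in HOXB13ko cells (vertical axis), with 95% intervals, red where the difference was called and a dashed line where both effects would be equal. The vertical values stay between -0.45 and 0.58 while the horizontal ones span -2.93 to 1.84.

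Among the semaphorin receptors, 1 neuropilin and 2 plexins were called. NRP1 (ENSG00000099250, chr10:33177492-33336262, minus strand), the co-receptor of class 3 semaphorins and of VEGF, gave 31.4, 27.9 and 26.0 CPM in Control, 99.2, 107 and 102 in LV-MEIS1, 19.4, 20.3 and 21.9 in HOXB13ko and 27.1, 27.0 and 26.6 in HOXB13ko-LV-MEIS1. The 3 LV-MEIS1 libraries stood above the other 9, which lay between 19.4 and 31.4. The rise over Control was 3.61-fold (log2 1.84 ± 0.07, SE; treat adjusted p = 5.6e-09), and HOXB13ko-LV-MEIS1 was 3.82-fold below LV-MEIS1 (adjusted p = 1.9e-09). The MEIS1 effect differed by 1.45 on the log2 scale (adjusted p = 3.3e-05).

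PLXNA2 (ENSG00000076356, chr1:208022242-208244384, minus strand), a plexin that pairs with neuropilins and binds class 6 semaphorins, gave 19.5, 19.2 and 17.2 CPM in Control, 27.6, 28.5 and 28.3 in LV-MEIS1, 9.33, 9.16 and 9.42 in HOXB13ko and 7.48, 7.92 and 8.77 in HOXB13ko-LV-MEIS1. The HOXB13ko lines were lowest and LV-MEIS1 highest, with no overlap. The fall in HOXB13ko was 2.00-fold (adjusted p = 0.0139) and was not called without Control replicate 1, Control replicate 2 or HOXB13ko replicate 2 (adjusted p up to 0.0692). Between the MEIS1 lines the value was 3.49-fold lower with HOXB13 targeted (adjusted p = 3.5e-08). PLXNA3, its relative, gave 54.4, 51.9 and 52.4 CPM in Control, 58.9, 64.7 and 71.1 in LV-MEIS1, 40.7, 42.7 and 41.3 in HOXB13ko and 33.9, 32.8 and 25.2 in HOXB13ko-LV-MEIS1. Its call was between the MEIS1 lines, 2.12-fold lower (adjusted p = 0.0014). The other 6 plexins were not called anywhere. PLXNB2, the most abundant, gave 302, 332 and 298 CPM in Control and 214, 206 and 228 in LV-MEIS1, a log2 change of -0.52 ± 0.06 that passed eBayes (adjusted p = 5.3e-06) but not 1.5-fold. PLXNB3 shares 20.4% of its exon bases with SRPK3 on the same strand, so its values are uncertain.

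Among the class 3 semaphorins, which are secreted and mostly act through neuropilin and plexin complexes, members moved in opposite directions. SEMA3C (ENSG00000075223, chr7:80742538-80922359, minus strand) gave 43.7, 34.5 and 37.6 CPM in Control, 54.4, 53.4 and 54.9 in LV-MEIS1, 15.0, 16.8 and 17.4 in HOXB13ko and 17.6, 14.7 and 16.8 in HOXB13ko-LV-MEIS1. All 6 libraries with HOXB13 targeted were below the other 6. It fell 2.35-fold in HOXB13ko (log2 -1.21 ± 0.09; adjusted p = 0.00059) and was 3.32-fold lower between the MEIS1 lines (adjusted p = 2.3e-07). SEMA3D was low throughout, at 1.63, 1.73 and 1.39 CPM in Control, 4.87, 4.74 and 5.07 in LV-MEIS1, 0.719, 0.908 and 1.29 in HOXB13ko and 1.98, 1.61 and 1.48 in HOXB13ko-LV-MEIS1. LV-MEIS1 was 3.09-fold above Control (adjusted p = 0.0045), with no overlap, and HOXB13ko-LV-MEIS1 was 2.90-fold below LV-MEIS1 (adjusted p = 0.00524).

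SEMA3F (ENSG00000001617, chr3:50155045-50189075, plus strand) went the other way, at 8.78, 9.94 and 8.83 CPM in Control, 3.38, 2.81 and 4.37 in LV-MEIS1, 8.52, 8.02 and 6.38 in HOXB13ko and 7.17, 7.59 and 8.57 in HOXB13ko-LV-MEIS1. LV-MEIS1 was 2.61-fold lower than Control (log2 -1.29 ± 0.14; adjusted p = 0.00417), and its libraries did not overlap any other group. Its difference between MEIS1 effects (-1.32 ± 0.20; adjusted p = 0.0476) was not called without any 1 of 10 of the 12 libraries, all but LV-MEIS1 replicate 3 and HOXB13ko replicate 1 (adjusted p up to 0.135). The call between the MEIS1 lines (2.21-fold; adjusted p = 0.0394) was lost without any 1 of 8 libraries, namely Control replicates 1 and 3, LV-MEIS1 replicates 1 and 2, HOXB13ko replicate 2 and all 3 HOXB13ko-LV-MEIS1 libraries (adjusted p up to 0.215). Reads of SEMA3F-AS1, an antisense gene sharing 110 exon bases, cannot be told apart without strand. SEMA3E rose with MEIS1 by eBayes only (log2 1.01 ± 0.13; treat adjusted p = 0.0629), from 3.45 ± 0.473 CPM to 7.46 ± 0.669.

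Of the class 4 semaphorins, which span the membrane, SEMA4A changed most. SEMA4A (ENSG00000196189, chr1:156147366-156177752, plus strand), a ligand of plexin-B and plexin-D1 receptors, gave 56.1, 63.7 and 59.1 CPM in Control, 18.9, 19.7 and 19.0 in LV-MEIS1, 48.1, 42.5 and 44.8 in HOXB13ko and 44.6, 46.6 and 47.3 in HOXB13ko-LV-MEIS1. LV-MEIS1 lay far below every other library. The fall was 3.10-fold (log2 -1.61 ± 0.06; adjusted p = 1.9e-08) and the difference of the MEIS1 effects was -1.64 ± 0.09 (adjusted p = 1.3e-06). HOXB13ko-LV-MEIS1 was 2.4-fold above LV-MEIS1 (adjusted p = 1.7e-06). SEMA4B (chr15:90160604-90229679, plus strand) gave 17.2, 19.6 and 17.8 CPM in Control, 8.91, 9.80 and 9.95 in LV-MEIS1, 19.8, 19.6 and 16.4 in HOXB13ko and 19.7, 21.2 and 19.1 in HOXB13ko-LV-MEIS1. It was 1.90-fold lower in LV-MEIS1 (adjusted p = 0.0492), a call kept only without HOXB13ko replicate 3 when libraries were left out singly (adjusted p up to 0.23), and 2.09-fold higher in HOXB13ko-LV-MEIS1 than in LV-MEIS1 (adjusted p = 0.00214). The 20 listed neighbours of SEMA4B with a mean of at least 5 CPM were all lower in LV-MEIS1 than in Control, with a median log2 change of -0.66, whereas those of SEMA7A, NEO1 and SEMA6D on the same chromosome had medians of -0.04, 0.02 and 0.02. In HOXB13ko-LV-MEIS1 against LV-MEIS1, the neighbours of SEMA4B had a median of 0.55, and 1 of the 20 was lower. The medians for SEMA7A, NEO1 and SEMA6D were -0.05, -0.11 and 0.10 there. The part of the neighbourhood in the SEMA4B values was not tested. SEMA4G, whose exons overlap MRPL43 on the other strand over 22.9% of their bases, has uncertain values.

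Class 6 semaphorins, also transmembrane, held the largest rise in HOXB13ko. SEMA6D (ENSG00000137872, chr15:47184101-47774228, plus strand), a plexin-A1 ligand, gave 3.09, 3.08 and 3.17 CPM in Control, 2.94, 1.55 and 2.28 in LV-MEIS1, 16.7, 15.7 and 17.5 in HOXB13ko and 15.3, 17.1 and 17.4 in HOXB13ko-LV-MEIS1. The 6 libraries with HOXB13 targeted all exceeded 15 CPM and the other 6 stayed under 4. The rise over Control was 5.34-fold (log2 2.24 ± 0.15; adjusted p = 3.8e-06) and that between the MEIS1 lines 7.35-fold (adjusted p = 4.5e-08). SEMA6B (chr19:4542593-4581776, minus strand) gave 4.80, 5.64 and 4.48 CPM in Control, 10.3, 9.10 and 12.1 in LV-MEIS1, 4.66, 4.08 and 3.91 in HOXB13ko and 3.14, 3.49 and 3.51 in HOXB13ko-LV-MEIS1. Its rise with MEIS1 was 2.11-fold and missed the 1.5-fold test (adjusted p = 0.0576), while the difference of MEIS1 effects was called (1.29 ± 0.18; adjusted p = 0.0283). That call was lost without any 1 of 7 libraries, namely Control replicates 1 and 3, LV-MEIS1 replicates 1 and 3, HOXB13ko replicates 1 and 2 and HOXB13ko-LV-MEIS1 replicate 1 (adjusted p up to 0.0935). SEMA6B was 3.11-fold lower in HOXB13ko-LV-MEIS1 than in LV-MEIS1 (adjusted p = 6.6e-05). SEMA7A, the lipid-anchored ligand of plexin-C1, gave 1.92, 2.68 and 1.66 CPM in Control, 0.719, 0.891 and 0.814 in LV-MEIS1, 2.88, 2.02 and 2.00 in HOXB13ko and 2.32, 2.61 and 2.83 in HOXB13ko-LV-MEIS1. It was called between the MEIS1 lines (3.2-fold; adjusted p = 0.0201), except without LV-MEIS1 replicate 1 or 3 or HOXB13ko-LV-MEIS1 replicate 2 or 3 (adjusted p up to 0.0868).

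**Figure D5:**
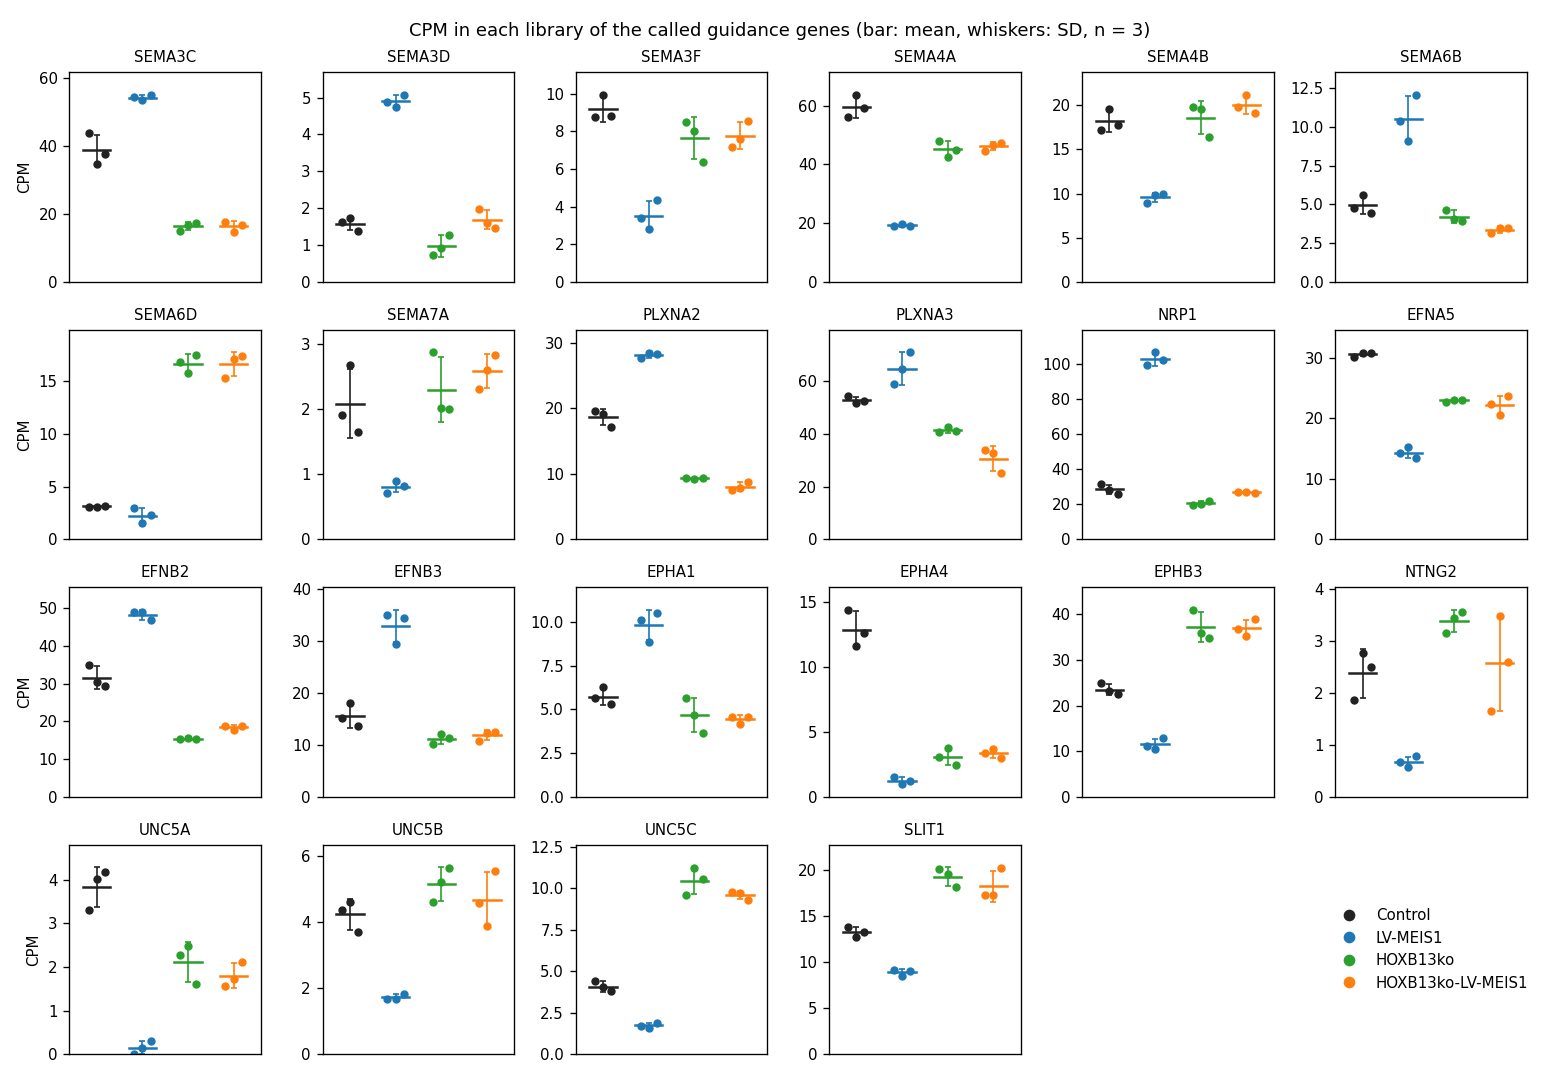
CPM of the 22 genes called in any of the 5 comparisons in each library (points), with group mean and SD (n = 3), on axes that start at 0. LV-MEIS1 stands apart from the other groups for genes such as NRP1 (103 CPM) and SEMA4A (19.2 CPM), while SEMA6D, SEMA3C and EFNB2 split the libraries by HOXB13 targeting.

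Among the Eph receptors, EPHA4 fell in both single lines. EPHA4 (ENSG00000116106, chr2:221418027-221574202, minus strand), which binds ephrins of both classes, gave 14.4, 11.6 and 12.6 CPM in Control, 1.55, 0.984 and 1.22 in LV-MEIS1, 3.10, 3.77 and 2.42 in HOXB13ko and 3.38, 3.65 and 2.96 in HOXB13ko-LV-MEIS1. Control was highest and LV-MEIS1 lowest, with no overlap, and the HOXB13ko lines overlapped each other. The fall was 10.2-fold with MEIS1 (log2 -2.93 ± 0.16; adjusted p = 5.2e-08) and 4.14-fold in HOXB13ko (-1.90 ± 0.16; adjusted p = 0.00011). The MEIS1 effects differed by -3.04 ± 0.23 (adjusted p = 3.3e-06). EPHA4 was 2.66-fold higher in HOXB13ko-LV-MEIS1 than in LV-MEIS1 (adjusted p = 0.0318), a call lost without LV-MEIS1 replicate 2 or 3 or HOXB13ko-LV-MEIS1 replicate 1 or 2 (adjusted p up to 0.157).

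EPHB3 (chr3:184561785-184582408, plus strand), an ephrin-B receptor, gave 24.9, 23.2 and 22.4 CPM in Control, 11.1, 10.5 and 12.9 in LV-MEIS1, 41.0, 36.0 and 34.9 in HOXB13ko and 36.8, 35.3 and 38.9 in HOXB13ko-LV-MEIS1. It fell 2.04-fold with MEIS1 (adjusted p = 0.00435) and was 3.21-fold higher between the MEIS1 lines (adjusted p = 2.3e-07). EPHA1 gave 5.64, 6.29 and 5.30 CPM in Control, 10.1, 8.87 and 10.5 in LV-MEIS1, 5.63, 4.71 and 3.68 in HOXB13ko and 4.57, 4.15 and 4.56 in HOXB13ko-LV-MEIS1. LV-MEIS1 was the highest group for EPHA1, and the call between the MEIS1 lines (2.22-fold lower; adjusted p = 0.0228) was lost without LV-MEIS1 replicate 1 or 3 or HOXB13ko-LV-MEIS1 replicate 2 (adjusted p up to 0.108). All 12 Eph receptors passed eBayes between LV-MEIS1 and Control, 4 higher and 8 lower, against 44.5% of all genes. EPHA5 fell in HOXB13ko by eBayes, from 2.51 ± 0.0895 to 0.820 ± 0.111 CPM (log2 -1.19 ± 0.16; treat adjusted p = 0.0571), and EPHA7 rose by eBayes from 13.7 ± 2.17 to 23.6 ± 0.736 CPM (0.77 ± 0.11).

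The ephrins, which these receptors bind, were led by EFNA1, at 53.6 ± 5.30 CPM in Control, 47.4 ± 0.679 in LV-MEIS1, 46.6 ± 4.21 in HOXB13ko and 46.1 ± 1.64 in HOXB13ko-LV-MEIS1, with no call. EFNA3 and EFNA4 share 43.9% and 15.0% of their exon bases with a readthrough transcript of both, so their values are uncertain. EFNA5 (ENSG00000184349, chr5:107376894-107670937, minus strand) gave 30.1, 30.8 and 30.7 CPM in Control, 14.3, 15.3 and 13.4 in LV-MEIS1, 22.8, 23.0 and 23.1 in HOXB13ko and 22.3, 20.6 and 23.7 in HOXB13ko-LV-MEIS1. LV-MEIS1 was lowest and Control highest, with no overlap. The fall with MEIS1 was 2.13-fold (log2 -1.07 ± 0.07; adjusted p = 0.00019), and the difference of MEIS1 effects was -1.02 ± 0.10 (adjusted p = 0.0152).

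Both called ephrin-B ligands were high in LV-MEIS1. EFNB2 (ENSG00000125266, chr13:106489745-106535662, minus strand) gave 35, 30.4 and 29.5 CPM in Control, 49.1, 49.0 and 46.8 in LV-MEIS1, 15.3, 15.5 and 15.3 in HOXB13ko and 18.9, 17.7 and 18.7 in HOXB13ko-LV-MEIS1. It fell 2.06-fold in HOXB13ko (log2 -1.01 ± 0.07; adjusted p = 0.00173) and was 2.62-fold lower between the MEIS1 lines (adjusted p = 6.7e-07). An antisense gene overlaps 36.4% of its exon bases, and its reads cannot be told apart without strand. EFNB3 (chr17:7705202-7711372, plus strand) gave 15.1, 18.1 and 13.6 CPM in Control, 35, 29.4 and 34.4 in LV-MEIS1, 10.2, 12 and 11.2 in HOXB13ko and 10.7, 12.3 and 12.4 in HOXB13ko-LV-MEIS1. LV-MEIS1 exceeded every other library, 2.11-fold over Control (adjusted p = 0.0106), a call lost without Control replicate 3, LV-MEIS1 replicate 1 or LV-MEIS1 replicate 3 (adjusted p up to 0.0704). EFNB3 was also 2.79-fold lower in HOXB13ko-LV-MEIS1 than in LV-MEIS1 (adjusted p = 3.2e-05).

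All 3 UNC5 netrin receptors fell in LV-MEIS1 and were higher in HOXB13ko-LV-MEIS1 than in LV-MEIS1. UNC5A (ENSG00000113763, chr5:176810519-176880898, plus strand) stood at 3.31, 4.02 and 4.16 CPM in the Control libraries. The LV-MEIS1 libraries held 0, 0.141 and 0.296 CPM, where 3 reads amount to 0.166, 0.141 and 0.111 CPM. UNC5A gave 2.27, 2.48 and 1.60 CPM in HOXB13ko and 1.56, 1.73 and 2.11 in HOXB13ko-LV-MEIS1. LV-MEIS1 stood near the limit of detection and apart from all other libraries. The fitted change with MEIS1 was -2.77 ± 0.20 with a pseudocount of 0.5 (adjusted p = 1.2e-06), -4.21 with 0.1 and -2.08 with 1, and no fold is given for so low a level. The difference of MEIS1 effects was -2.59 ± 0.28 (adjusted p = 0.00021), -3.99 and -1.93 with those pseudocounts. HOXB13ko-LV-MEIS1 was above LV-MEIS1 by 1.85 ± 0.20 on this scale (adjusted p = 0.00024), by 3.15 and by 1.29.

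UNC5B gave 4.37, 4.59 and 3.71 CPM in Control, 1.67, 1.66 and 1.82 in LV-MEIS1, 4.61, 5.22 and 5.62 in HOXB13ko and 4.58, 3.86 and 5.53 in HOXB13ko-LV-MEIS1. It was 2.46-fold lower in LV-MEIS1 (adjusted p = 0.0356), a call lost without any 1 of 7 libraries, namely Control replicates 1 and 2, all 3 LV-MEIS1 libraries, HOXB13ko replicate 2 and HOXB13ko-LV-MEIS1 replicate 1 (adjusted p up to 0.158). UNC5C (ENSG00000182168, chr4:95162504-95549206, minus strand) gave 4.42, 4.02 and 3.78 CPM in Control, 1.72, 1.59 and 1.89 in LV-MEIS1, 9.57, 11.2 and 10.6 in HOXB13ko and 9.76, 9.67 and 9.29 in HOXB13ko-LV-MEIS1. It moved in opposite directions in the single lines, 2.35-fold lower with MEIS1 (log2 -1.03 ± 0.11; adjusted p = 0.0126) and 2.56-fold higher in HOXB13ko (1.26 ± 0.11; adjusted p = 0.00123). The first call was lost without Control replicate 1 or LV-MEIS1 replicate 2 (adjusted p up to 0.061). UNC5C was 5.53-fold and UNC5B 2.71-fold higher in HOXB13ko-LV-MEIS1 than in LV-MEIS1 (adjusted p = 2.5e-08 and 0.00486). NEO1, by contrast, averaged 44.3 ± 2.01, 47.0 ± 2.90, 50.0 ± 1.90 and 49.3 ± 0.980 CPM in the 4 groups, in the order used for UNC5C, and its largest change, 0.17 ± 0.06 in HOXB13ko, passed eBayes only (adjusted p = 0.0403).

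The netrins themselves were at low levels. NTNG2, a lipid-anchored netrin-G that does not bind DCC, gave 1.86, 2.78 and 2.51 CPM in Control, 0.665, 0.567 and 0.778 in LV-MEIS1, 3.16, 3.46 and 3.57 in HOXB13ko and 1.65, 3.50 and 2.59 in HOXB13ko-LV-MEIS1. The fall with MEIS1 (3.56-fold; adjusted p = 0.0462) was kept only without Control replicate 1, HOXB13ko-LV-MEIS1 replicate 1 or HOXB13ko-LV-MEIS1 replicate 2 when libraries were left out singly (adjusted p up to 0.206). The call between the MEIS1 lines (3.85-fold; adjusted p = 0.0168) was lost without LV-MEIS1 replicate 2 or HOXB13ko-LV-MEIS1 replicate 2 or 3 (adjusted p up to 0.106). NTN1, NTN3 and NTNG1 were not called, with group means between 0.769 and 2.44 CPM. SLIT1, a ROBO ligand, gave 13.8, 12.7 and 13.2 CPM in Control, 9.11, 8.48 and 9.03 in LV-MEIS1, 20.1, 19.5 and 18.1 in HOXB13ko and 17.3, 17.2 and 20.1 in HOXB13ko-LV-MEIS1. LV-MEIS1 was lowest and the HOXB13ko lines highest, and SLIT1 was called between the MEIS1 lines (2.05-fold; adjusted p = 0.00229). ROBO1, the main SLIT receptor here, gave 138, 125 and 122 CPM in Control and 79.2, 84.0 and 89.6 in HOXB13ko, a log2 change of -0.61 ± 0.06 that passed eBayes (adjusted p = 3.3e-06) but not the 1.5-fold test.

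Other members changed by more than 1.5-fold in the fit and passed eBayes without passing treat. With MEIS1 these were SEMA7A (-0.97), EPHA8 (-0.87), EPHA5 (-0.75), EPHA10 (-0.67) and EFNA2 (-0.59), which were lower, and EPHA1 (0.73), NTNG1 (0.69) and EFNB2 (0.61), which were higher, beside SEMA3E and SEMA6B. In HOXB13ko they were UNC5A (-0.74), EPHB3 (0.65) and SEMA4G (0.59), beside EPHA5, EPHA7 and ROBO1. Between the MEIS1 lines they were SLIT2 (-0.82), SEMA6C (-0.77), SEMA3E (-0.72), SEMA3B (-0.71), EFNA3 (-0.67), EPHA2 (-0.66), NTN3 (-0.59), EFNA5 (0.61), EPHA6 (0.71), EPHB2 (0.72) and EPHA8 (0.72). In the difference of MEIS1 effects they ran from SEMA7A at -1.12 to SEMA3E at 1.21, with SEMA4B, EPHB3, EPHA8, UNC5B, UNC5C, NTNG2, EPHA5 and EFNA2 below 0 and EFNB3, SEMA3D, EPHA1, PLXNA2, PLXNA3, SLIT2 and SEMA6C above it. In all, 22 of the 58 members were called in at least 1 comparison and 36 in none. The matching share of all genes was not computed, so these counts describe the members only.

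Because MEIS1 and HOXB13 are DNA-binding factors, the promoters of the members were searched for TGACAG, the MEIS core, and CCAATAAA, a HOXB13 site, on either strand and in the 250 bases before to 50 bases after each RefSeq start. Promoters were found for 49 of the 58 members. TGACAG, which as a short run also occurs inside longer motifs, was held by 9 of the 79 promoters of these 49 members, which belong to 8 members, and by 15.8% of all 35116 promoters. CCAATAAA was held by none of the 79 and by 0.934% of all promoters. Of the 22 called members 17 had a promoter, and 4 of these held TGACAG, namely PLXNA2, EFNB2, SEMA4A and SEMA6D. NTNG1, ROBO1, SEMA3E and PLXNB2, called nowhere, held it too, and the share of all genes with it was not computed. PLXNA2, EFNB2 and SEMA6D were not called in LV-MEIS1 against Control, and a link between the core and any change was not tested. The sequences of the 4 called members are shown because PLXNA2, EFNB2 and SEMA6D split the libraries by HOXB13 targeting and SEMA4A was lowest with MEIS1. They are RefSeq sequences of GRCh38.p14, 5′ to 3′ on the gene's strand, with the core or its reverse complement CTGTCA in capitals. PLXNA2 and EFNB2 are shown over the 250 bases before the start (chr1:208244385-208244634 and chr13:106535663-106535912, both minus strand), with cores beginning at position -142 and at positions -164 and -18 from the start. SEMA4A (chr1:156153522-156153551 and chr1:156154340-156154369, plus strand) and SEMA6D (chr15:47718372-47718401, plus strand), whose windows overlap exons, are shown over 30 bases around the core, with cores beginning at positions -51, -196 and -105. The second SEMA4A start has a further core at position 12 after it (chr1:156154548-156154577).
PLXNA2: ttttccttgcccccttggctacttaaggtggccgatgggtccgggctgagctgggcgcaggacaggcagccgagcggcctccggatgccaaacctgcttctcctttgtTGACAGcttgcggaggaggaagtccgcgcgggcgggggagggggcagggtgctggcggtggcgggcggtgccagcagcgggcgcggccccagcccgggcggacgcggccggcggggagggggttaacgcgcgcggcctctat
EFNB2: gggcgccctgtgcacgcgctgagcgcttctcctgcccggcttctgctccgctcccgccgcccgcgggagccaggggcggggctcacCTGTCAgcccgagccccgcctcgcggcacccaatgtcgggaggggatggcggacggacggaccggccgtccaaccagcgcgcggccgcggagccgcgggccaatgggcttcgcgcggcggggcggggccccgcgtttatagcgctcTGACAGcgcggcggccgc
SEMA4A, first start: ccaagccaggatCTGTCAcaactcgagagg
SEMA4A, second start: gggacagtgaggTGACAGgctgaggcctgg
SEMA4A, second start, after it: agagctccctggTGACAGtctgtggctgag
SEMA6D: ggcgtaggatacCTGTCAgtgagcgcccgg
A match is a description of letters in a window and says nothing of binding, and the called members without a match, such as SEMA3C and EPHA4, show no such run in these windows only.

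Partners of the guidance receptors at the cell surface were followed through a list of 28 co-receptors and other cues, of which 19 were listed. With MEIS1, 5 rose, against 1.75% of all genes, and 2 fell, against 2.24%. FLRT3, a ligand of UNC5B, rose from 3.64 ± 0.416 to 20.4 ± 1.47 CPM (log2 2.34 ± 0.15; adjusted p = 7.2e-07), and its relative FLRT2 fell from 12.1 ± 2.4 to 3.65 ± 0.490 CPM (-1.59 ± 0.14; adjusted p = 9.9e-05). The plexin-B co-receptor ERBB2 rose from 56.2 ± 2.66 to 113 ± 2.64 CPM (adjusted p = 0.00064), CDON from 7.08 ± 0.461 to 16.1 ± 2.03, the netrin receptor DSCAM from 2.95 ± 0.422 to 8.16 ± 1.13 and the neuropilin partner NRCAM from 1.53 ± 0.345 to 4.32 ± 0.192, while the proteoglycan SDC1 fell from 53.0 ± 4.83 to 29.1 ± 1.38. DSCAM alone was called in HOXB13ko, against 1.41% of all genes, reaching 8.10 ± 0.0812 CPM (log2 1.32 ± 0.12; adjusted p = 0.00196). None was called when MEIS1 was added to HOXB13ko. In HOXB13ko-LV-MEIS1 against LV-MEIS1, BOC (log2 1.16), FLRT2 (1.40) and SDC1 (1.48) were higher and ERBB2 (-1.44) and FLRT3 (-2.44) lower. The difference of MEIS1 effects was called for FLRT3 (1.89), DSCAM (1.31), ERBB2 (0.98) and FLRT2 (-1.57), against 2.93% of all genes.

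Of 66 intracellular effectors of guidance receptors 64 were listed, and with MEIS1 2 rose, against 1.75% of all genes, and 3 fell, against 2.24%. DPYSL3, a collapsin response mediator in semaphorin signalling, averaged 66.3 ± 5.09 CPM in Control, 23.6 ± 0.721 in LV-MEIS1, 94.0 ± 1.88 in HOXB13ko and 102 ± 4.87 in HOXB13ko-LV-MEIS1 (MEIS1 effect -1.47 ± 0.06 on the log2 scale; adjusted p = 4.8e-08). DPYSL4 (log2 -1.15), of the same family, and DAPK1 (-1.52), a kinase that binds UNC5B, also fell, and the exchange factor VAV3 (1.28) and the plexin-binding GTPase RHOD (1.35) rose. All 5 were also called in the difference of MEIS1 effects, against 2.93% of all genes, from -1.59 for DPYSL3 to 1.55 for RHOD. They had been picked by the comparison of LV-MEIS1 with Control, which shares libraries with that difference. ABLIM3, an actin-binding protein, was the only effector called in HOXB13ko, against 1.41% of all genes, rising from 2.47 ± 0.312 to 10.1 ± 0.560 CPM (adjusted p = 4.7e-06). No effector was called when MEIS1 was added to HOXB13ko. In HOXB13ko-LV-MEIS1 against LV-MEIS1, ABLIM3 (1.33), DAPK1 (1.40), DPYSL3 (2.09) and DPYSL4 (1.44) were higher and the actin monooxygenase MICAL1 (-1.09) and RHOD (-2.77) lower. The median log2 fold change with MEIS1 was 0.03 for the effectors and 0.25 for the co-receptors, against 0.01 for all genes.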

How the data were processed

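RNA-seq of 12 CWR22Rv1 libraries (4 groups of 3) was analysed from the deposited CPM values. Per the methods and labels, the authors trimmed single-end reads with Trimmomatic 0.38, estimated transcript counts on GRCh38 with kallisto 0.43.1 with default settings, which do not use strand, summed them to genes, filtered low counts and scaled libraries in edgeR 3.22.2, so the CPM are relative to library size and genes under the filter were not analysed here. Of 13993 rows 42 exact repeats were dropped, leaving 13951 genes that sum to 940564 to 992328 CPM. Between 40.2% and 53.6% of values under 1 CPM were whole multiples (within 0.05 reads) of the step, so reads were not recovered. log2(CPM + 0.5) of all genes and libraries was fitted in limma 3.58.1 (R 4.3.3) on group means. treat at 1.5-fold with trend and eBayes were adjusted over all genes by Benjamini-Hochberg. A log2 fold change on this scale understates changes of low genes. The fit was tested on simulated data. Ratios are of mean CPM. Positions and lengths came from GENCODE 44. Named members were those called anywhere, those past eBayes with a fitted change over 1.5-fold and the most abundant of each family. The members, lists and rules were chosen with earlier results of these data known. The result of a called effector is not reported here. Replicate numbers did not pair the libraries. Figures were drawn with matplotlib 3.10.9.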

Additional observations from a re-analysis of the deposited data

Results flagged for a closer look

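For 7 of the 58 members, against 2.93% of all genes, the effect of MEIS1 differed between Control cells and HOXB13ko cells. This was by limma's treat test of the interaction, with adjusted p-values from 1.3e-06 to 0.0476 over all genes. The difference, on the log2 scale, was -3.04 for EPHA4, -2.59 for UNC5A, -1.64 for SEMA4A, -1.32 for SEMA3F and -1.02 for EFNA5. These genes were lower in LV-MEIS1 than in Control. The difference was 1.45 for NRP1 and 1.29 for SEMA6B, which were higher in LV-MEIS1 than in Control. None of the 7 was called when MEIS1 was added to HOXB13ko cells, where their fitted changes lay between -0.28 for SEMA6B and 0.38 for NRP1. Only 1 of all 13951 genes was called there. The call of the difference was lost without any 1 of 10 of the 12 libraries for SEMA3F and any 1 of 7 for SEMA6B. The MEIS1 lines held 47.4 and 29.7 CPM of MEIS1 mRNA, and the LV-MEIS1 labels do not mention Cas9. These differences between the lines cannot be told apart from the HOXB13 background.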

How the results depend on the processing

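Scaling, the pseudocount, a minimum mean of 1 CPM and fitting only the groups compared kept each count of called members within 1.5 times its value. No member change that passed eBayes turned sign in these or the alternatives below. Changes that did not pass eBayes, such as those of MEIS1 added to HOXB13ko, were not checked for sign. Testing against no change in place of 1.5-fold moved the counts to 40 for LV-MEIS1, 30 for HOXB13ko, 47 between the MEIS1 lines and 37 for the difference. Leaving out single libraries gave 9 to 12, 5 to 6, 16 to 21 and 5 to 7 called members in those comparisons, and 0 for MEIS1 added to HOXB13ko. Where that leaves a group with fewer libraries, the spread is pooled over all groups. Same-numbered libraries correlated by between -0.209 and 0.146 in their deviations, so the numbers do not pair them, and a fit with the replicate number as a block gave 12, 6, 20 and 6 calls and 0 for MEIS1 added to HOXB13ko. The other scalings moved the median of all genes by under 0.1 on the log2 scale. With merged exons as length, the same member led each of the 9 families, and EPHA3 stood at 107 CPM per kb in Control in place of 123. UNC5A in LV-MEIS1 and other members under 1 CPM are limited by depth.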
